A study of Mus musculus with 8 samples.

Results

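The MAP kinase phosphatases are the dual-specificity phosphatases that remove phosphate from both the threonine and the tyrosine of the activation loop of the MAP kinases ERK, JNK and p38. The 10 genes listed for this family, Dusp1, Dusp2, Dusp4, Dusp5, Dusp6, Dusp7, Dusp8, Dusp9, Dusp10 and Dusp16, were taken by symbol from the 24062 genes of the count tables, and all 10 were found. All 10 also passed the filter on low counts that left 15789 genes for testing. Some members are transcribed in response to the kinase they switch off, which makes them negative feedback on it, and Dusp6 is a widely used readout of fibroblast growth factor (FGF) signalling through ERK in embryonic tissue, the midbrain-hindbrain region included. The family is usually ordered by where the protein sits and which kinase it prefers: nuclear inducible enzymes (Dusp1, Dusp2, Dusp4, Dusp5), cytoplasmic ERK-selective enzymes (Dusp6, Dusp7, Dusp9) and enzymes that prefer JNK and p38 (Dusp8, Dusp10, Dusp16).

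The levels were measured by polyA RNA sequencing of whole cerebella from individual mouse pups at postnatal day 2, of a mixed C57BL/6 background. The 4 mutants were Math1-Cre; Sufu flox/-, and the 4 control littermates were Sufu flox/+ per the series text. The labels do not say whether a control pup also had Math1-Cre. The parents with the floxed alleles were homozygous for Math1 mgfp, so by the cross every pup of both groups would have inherited one such allele. Sufu encodes a negative regulator of Hedgehog signalling, and Math1-Cre is active in the granule cell precursor lineage, so only a fraction of the cells in a whole cerebellum would delete the floxed allele while every cell of a mutant lacks the other.

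Each library was a separate pup, with a depth of 21479565 to 26638284 counts in genes. Sufu stood at 31.7, 34.4, 36.8 and 39.8 CPM (counts scaled to a common library size) in mutants 1 to 4, against 47.7, 51.0, 55.9 and 60.7 CPM in controls 1 to 4, so every mutant lay below every control. Its log2 fold change was -0.59 (SE 0.11, edgeR adjusted p = 0.381). Sample titles carry a letter, P for mutants 1 and 2 and controls 1 and 2 and R for the other libraries, whose meaning is not stated. Y-linked genes summed to over 100 counts in 2 of 4 mutants, mutants 2 and 4, and in 0 of 4 controls. Hindbrain Hox genes, which mark tissue behind the cerebellum, were all 12 lower on average in mutants, with a summed level of 6.58 to 172 CPM in mutants and 119 to 210 CPM in controls, and mutant 4 was the lowest.

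Across the family, Dusp4, Dusp5 and Dusp6 had mean levels 1.42, 1.80 and 1.48 times those of controls. In each of them 3 of the 4 mutants were above every control, and in Dusp16 too by a small margin. The share of all genes with that arrangement was not counted. The other 6 had differences near 0 or below it, and Dusp9, with few counts, had the widest interval. No member passed the test over all 15789 genes (edgeR quasi-likelihood test, adjusted p under 0.05 for 0 of 10 members), and 0% of all genes tested passed it. DESeq2 called 0 of 10 members too, and 52 genes in all. At an unadjusted p under 0.05, edgeR put 3 of 10 members higher in mutants and 0 lower, against 6.94% of all genes higher and 5.7% lower. By size of p, Dusp6 stood at place 327, Dusp5 at place 361 and Dusp4 at place 766 of the 15789 genes. The median log2 fold change of the 10 members was -0.02, against 0.01 over all genes tested, with 5 members higher and 5 lower. No member had every mutant above every control, an arrangement that 3.6% of all genes showed, and none had every mutant below every control, which 2.96% showed. In bulk tissue, a difference in the share of cells that express a gene and a difference in its RNA per cell cannot be told apart.

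**Figure D1:**
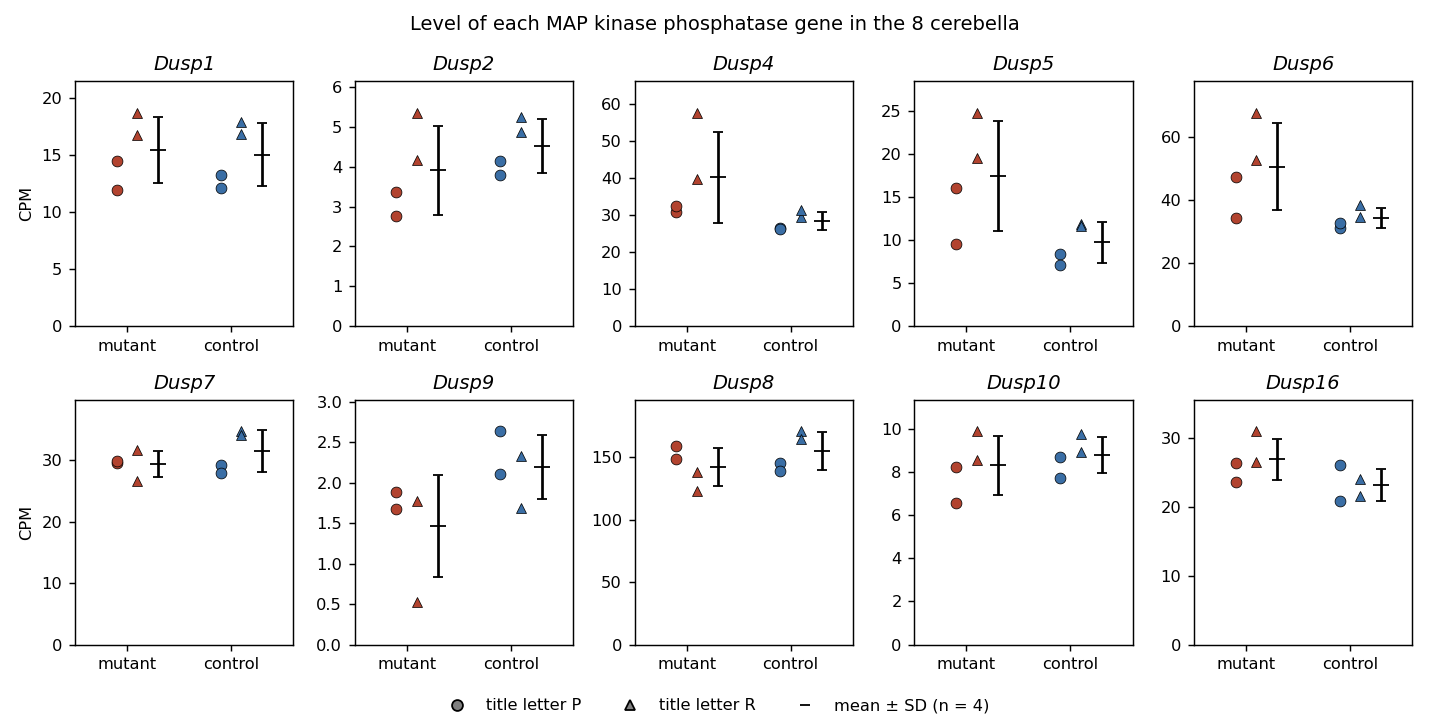
Level of each member in CPM, with mutants to the left of controls. Each point is 1 pup, circles are libraries with title letter P and triangles those with R, and the bar is the mean ± SD of 4 pups. For Dusp4, Dusp5, Dusp6 and Dusp16, 3 mutants lie above all controls and the lowest mutant lies within the control range, and the groups overlap for all 10 members.

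Promoter sequence is shown for 3 members: Dusp5 and Dusp6, the members with the largest positive differences, and Dusp1, an inducible member whose groups coincided. The windows are the 250 bases before the RefSeq start on build GRCm38.p6, 5′ to 3′ on the strand of the gene, which is not the mm9 build of the counts. RefSeq windows were matched for 8 of the 10 members, all but Dusp4 and Dusp9. Capitals mark matches, on either strand, to the CArG box bound by serum response factor, the cyclic AMP response element core TGACG, its full palindrome TGACGTCA, and GGAA, the core bound by ETS factors. A TGACGTCA holds 2 overlapping TGACG matches.
Dusp5: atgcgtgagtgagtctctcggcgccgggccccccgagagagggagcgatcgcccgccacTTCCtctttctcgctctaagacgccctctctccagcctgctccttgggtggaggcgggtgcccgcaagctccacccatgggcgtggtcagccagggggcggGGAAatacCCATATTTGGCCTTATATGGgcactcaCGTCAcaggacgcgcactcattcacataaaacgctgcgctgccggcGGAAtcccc
Dusp6: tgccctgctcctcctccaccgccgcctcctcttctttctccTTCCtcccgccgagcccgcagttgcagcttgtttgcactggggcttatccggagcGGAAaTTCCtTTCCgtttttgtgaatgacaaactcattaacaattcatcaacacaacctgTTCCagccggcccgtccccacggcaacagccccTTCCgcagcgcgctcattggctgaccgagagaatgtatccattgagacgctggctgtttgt
Dusp1: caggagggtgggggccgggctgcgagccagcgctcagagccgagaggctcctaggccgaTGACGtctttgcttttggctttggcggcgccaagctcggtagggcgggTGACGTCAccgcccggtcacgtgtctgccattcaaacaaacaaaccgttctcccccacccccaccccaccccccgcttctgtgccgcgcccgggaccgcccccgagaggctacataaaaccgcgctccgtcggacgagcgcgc
The Dusp5 window lies at chr19:53528895-53529144 on the plus strand, the Dusp6 window at chr10:99262981-99263230 on the plus strand and the Dusp1 window at chr17:26508473-26508722 on the minus strand. Dusp5 held 2 adjoining CArG boxes, 82 to 73 and 72 to 63 bases before the start, and a CArG box was found in 1.47% of the 32851 RefSeq windows of this length. No other member window held one. Dusp6 held 6 GGAA matches and none of the other motifs. At least 1 GGAA was found in 93.4% of all windows, and the share with 6 or more was not counted. Dusp2 and Dusp5 held 3 GGAA matches each, Dusp16 held 2 and Dusp8 held 1, while Dusp7 and Dusp10 had no match. Dusp1 held 1 TGACGTCA at 143 to 136 bases before the start and 3 TGACG matches, of which 2 lie within it, and no GGAA. TGACGTCA occurred in 1.55% and TGACG in 17.8% of all windows, and Dusp8 was the other member with the palindrome, in 2 copies. These matches are letters in a window and were not tested for binding.

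Among the nuclear inducible enzymes, Dusp5 is specific for ERK and holds it in the nucleus. Dusp5 stood at 9.54, 16.1, 19.4 and 24.7 CPM in mutants 1 to 4, against 8.36, 7.06, 11.8 and 11.6 CPM in controls 1 to 4. Mutants 2 to 4 were above all controls, and mutant 1 lay inside the control range. The mean was 17.4 ± 6.36 CPM in mutants and 9.70 ± 2.36 CPM in controls (SD, n = 4 each). The log2 fold change was 0.85 (SE 0.27, 95% interval 0.25 to 1.45), with an unadjusted edgeR p of 0.00948 and an adjusted p of 0.381. It was the largest difference in the family, and its interval did not reach 0.

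Dusp4, an ERK-induced nuclear phosphatase that acts on ERK and JNK, stood at 30.9, 32.6, 39.6 and 57.6 CPM in mutants 1 to 4. Controls 1 to 4 held 26.4, 26.2, 29.5 and 31.5 CPM. Mutant 4 was far above the rest, mutant 3 was above all controls and mutant 2 just above them, while mutant 1 was below the highest control. The mean was 40.2 ± 12.2 CPM in mutants and 28.4 ± 2.54 CPM in controls (SD, n = 4 each). The log2 fold change was 0.50 (SE 0.18, 95% interval 0.10 to 0.91; edgeR adjusted p = 0.381).

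Dusp1, the first described member of the family and an immediate early gene that acts on JNK, p38 and ERK, had overlapping groups. It held 11.9, 14.5, 16.8 and 18.7 CPM in mutants 1 to 4, against 13.3, 12.1, 16.8 and 17.9 CPM in controls 1 to 4. The groups overlapped almost completely, and in both of them the R libraries were above the P libraries. The log2 fold change was 0.04 (SE 0.17, 95% interval -0.34 to 0.42; edgeR adjusted p = 0.925). Dusp2, an inducible nuclear enzyme best known from immune cells, was scarce at 3.37, 2.75, 5.35 and 4.16 CPM in mutants 1 to 4 and 4.14, 3.79, 5.26 and 4.88 CPM in controls 1 to 4. Its log2 fold change was -0.21 (SE 0.22, 95% interval -0.68 to 0.27; edgeR adjusted p = 0.672). Mutants 1 and 2 lay below all controls, and mutant 3 was above them by a small margin.

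Of the cytoplasmic ERK-selective enzymes, Dusp6 is the classic FGF-induced member and acts on ERK almost exclusively. Dusp6 stood at 34.3, 47.3, 52.8 and 67.6 CPM in mutants 1 to 4, against 31.2, 32.6, 34.7 and 38.4 CPM in controls 1 to 4. Mutants 2 to 4 were above every control, and mutant 1 lay among them. The mean was 50.5 ± 13.8 CPM in mutants and 34.2 ± 3.17 CPM in controls (SD, n = 4 each). The log2 fold change was 0.56 (SE 0.18, 95% interval 0.17 to 0.95), with an unadjusted edgeR p of 0.00873 and an adjusted p of 0.381.

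Dusp7, a close relative of Dusp6 that also acts on ERK, was at 29.5, 29.8, 31.6 and 26.5 CPM in mutants 1 to 4 and 29.2, 27.9, 34.6 and 34.0 CPM in controls 1 to 4. The groups overlapped, with mutant 4 the lowest library of all. The log2 fold change was -0.10 (SE 0.11, 95% interval -0.33 to 0.14; edgeR adjusted p = 0.683). Dusp9, an X-linked gene needed in the placenta, was near the lower limit of what could be measured, with 43, 39, 40 and 14 counts in mutants 1 to 4 and 68, 54, 51 and 36 counts in controls 1 to 4. As levels these were 1.88, 1.68, 1.77 and 0.52 CPM in mutants and 2.63, 2.11, 2.33 and 1.69 CPM in controls. Mutant 4 held less than a single CPM and stood apart from the other mutants. The log2 fold change was -0.60 (SE 0.34, 95% interval -1.34 to 0.14; edgeR adjusted p = 0.443), and it was -0.31 without mutant 4.

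The JNK and p38-selective enzymes had differences of at most 0.22 on the log2 scale. Dusp8, which is abundant in brain, stood at 159, 148, 138 and 123 CPM in mutants 1 to 4 and 146, 139, 171 and 165 CPM in controls 1 to 4, a log2 fold change of -0.13 (SE 0.11, 95% interval -0.36 to 0.11; edgeR adjusted p = 0.595). Mutants 3 and 4 were below all controls, and mutants 1 and 2 lay within the control range. Dusp10, which acts on JNK and p38 and is studied mostly in immune cells, held 8.22, 6.57, 8.57 and 9.89 CPM in mutants 1 to 4 and 7.74, 8.70, 8.96 and 9.77 CPM in controls 1 to 4. Its log2 fold change was -0.08 (SE 0.15, 95% interval -0.41 to 0.25; edgeR adjusted p = 0.830), and the groups overlapped. Dusp16, a JNK-selective enzyme that shuttles between nucleus and cytoplasm, held 26.5, 23.7, 26.6 and 31.0 CPM in mutants 1 to 4 and 20.9, 26.1, 21.7 and 24.1 CPM in controls 1 to 4. Although 3 of 4 mutants lay above all controls, the margin over control 2 was small for mutants 1 and 3, and the log2 fold change was 0.22 (SE 0.12, 95% interval -0.04 to 0.47; edgeR adjusted p = 0.430).

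**Figure D2:**
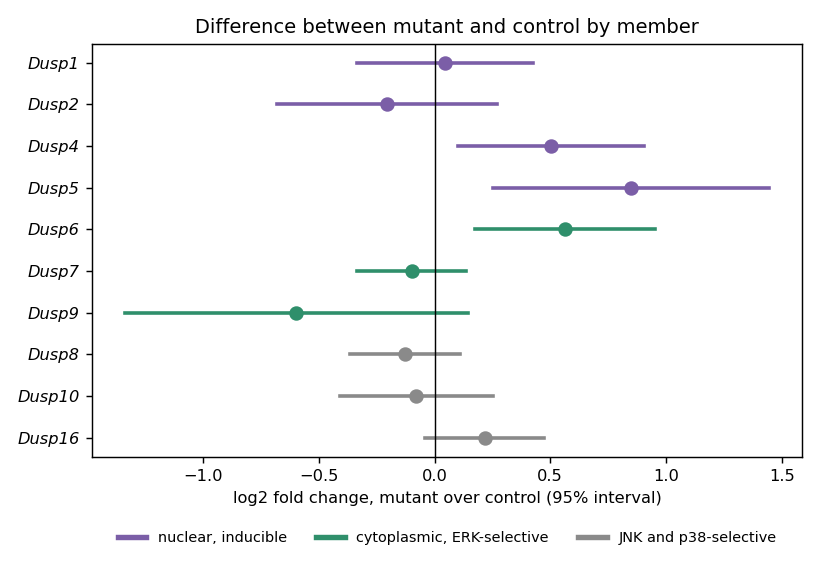
Log2 fold change of each member, mutant over control, with its 95% interval from the edgeR fit on 4 mutants and 4 controls, coloured by role. The intervals of Dusp4, Dusp5 and Dusp6 lie above 0 and the other 7 cross it, and none of the 10 passed after adjustment over all genes.

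By role, the median log2 fold change was 0.27 for the 4 nuclear inducible genes, -0.10 for the 3 cytoplasmic ERK-selective genes and -0.08 for the 3 JNK and p38-selective genes, and members of each role lay on both sides of 0. The positive differences of Dusp4, Dusp5 and Dusp6 thus crossed the line between nuclear and cytoplasmic enzymes, and each of these groups also held members with values near or below 0.

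To compare the genes with each other, CPM was divided by the length in kilobases of the longest protein-coding transcript of the GENCODE M21 annotation, which is not the annotation used for counting. Dusp8 was the most abundant member, at 29.6 ± 3.16 CPM per kb in mutants and 32.3 ± 3.13 CPM per kb in controls (SD, n = 4 each). Dusp6 followed at 18.1 ± 4.93 CPM per kb in mutants and 12.2 ± 1.14 CPM per kb in controls, and Dusp4 at 14.7 ± 4.46 CPM per kb in mutants and 10.4 ± 0.926 CPM per kb in controls. Going down from there in controls came Dusp7 (9.78 CPM per kb), Dusp1 (7.55), Dusp16 (4.54), Dusp5 (3.92), Dusp10 (3.15), Dusp2 (2.79) and Dusp9 (0.805). Neighbours in this order overlapped between control libraries, except at the steps below Dusp8, below Dusp1 and below Dusp2. In mutants Dusp5 averaged 7.05 CPM per kb and stood above Dusp16 at 5.28 CPM per kb, with overlapping libraries, and this was the 1 exchange in the order. At this age the JNK and p38-selective Dusp8 thus stood first per length, followed by the ERK-induced Dusp6 and Dusp4.

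The mutants were not alike. Among the 4 mutants, mutant 1 was the lowest and mutant 4 the highest for 4 of 10 members, Dusp1, Dusp4, Dusp5 and Dusp6, an arrangement found in 14.8% of all genes. Dusp7, Dusp8 and Dusp9 had their lowest mutant value in mutant 4 instead. Centred on their own means, the profiles of Dusp4 and Dusp6 over the 8 libraries differed by a root mean square of 0.114 log2 units, those of Dusp5 and Dusp6 by 0.243 and those of Dusp4 and Dusp5 by 0.296. Dusp7 and Dusp8 formed the closest pair of the family, at 0.0813, and Dusp9 was the farthest from the others. This measure is not scaled to how much a gene varies, so genes that vary little lie close. The SD of the log2 profile was 0.133 for Dusp7 and 0.153 for Dusp8. It was 0.371 for Dusp4, 0.395 for Dusp6, 0.616 for Dusp5 and 0.666 for Dusp9.

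The genes nearest to each member by this measure were taken among tested genes of at least 5 CPM, over the 8 libraries. These libraries differed in depth, cell type marker levels and title letter, and which of these the nearness followed was not tested. For Dusp6 they were Boc (0.0595), a Hedgehog co-receptor, Iqgap3 (0.0607), a scaffold expressed in dividing cells, and Ezr (0.0614), which links actin to the membrane. For Dusp4 they were Lrig3 (0.0357), Draxin (0.0446), a secreted axon guidance protein, and Espl1 (0.0470), the separase of mitosis. For Dusp5, with its larger SD of 0.616, they lay farther off. They were 5830416P10Rik (0.154), Mfap4 (0.170), one of the granule precursor markers below, and Adamts14 (0.182). Boc stood at 110 ± 32.2 CPM in mutants and 74.2 ± 7.28 CPM in controls, and Draxin at 214 ± 61.2 CPM in mutants and 149 ± 18.6 CPM in controls (SD, n = 4 each). The nearest gene to Dusp8 was Tvp23a (0.0210), that to Dusp7 was Letm1 (0.0317), that to Dusp16 was Zscan29 (0.0333) and that to Dusp1 was Cish (0.0498). Those to Dusp10, Dusp2 and Dusp9 were Wdr73 (0.0680), Alkbh7 (0.120) and Slc7a3 (0.134).

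**Figure D3:**
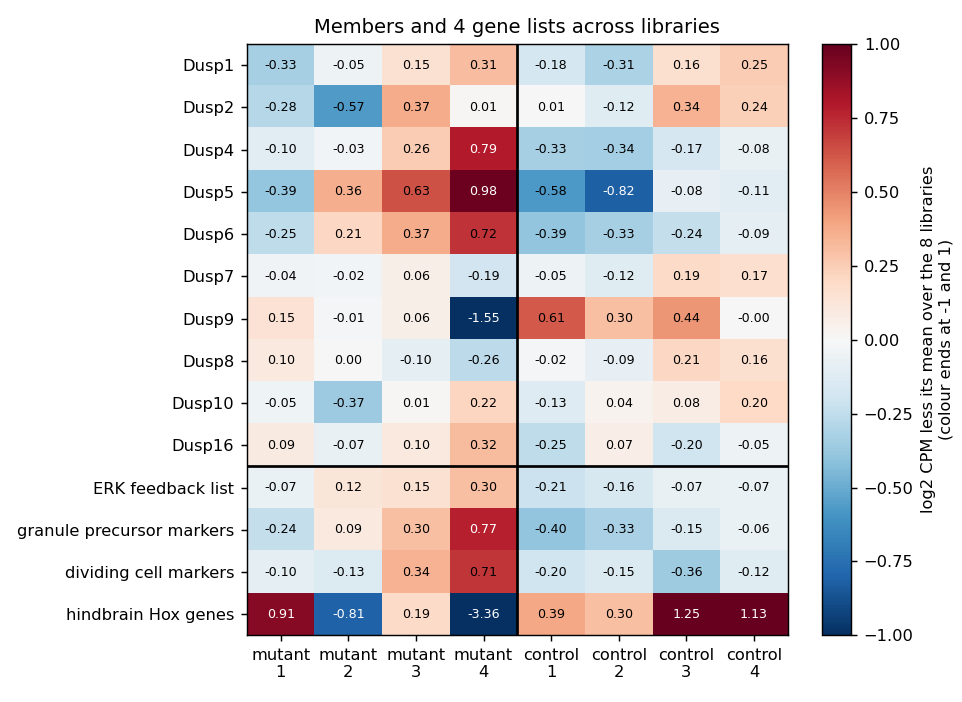
Log2 CPM of each member and mean log2 CPM of 4 gene lists in every library, each centred on its own mean over the 8 libraries; mutants are left of the vertical line. Dusp1, Dusp4, Dusp5, Dusp6, Dusp10, Dusp16, the ERK feedback list, the granule precursor markers and the dividing cell markers have their highest value in mutant 4. The hindbrain Hox genes, Dusp7, Dusp8 and Dusp9 have their lowest value there.

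Cell type markers also differed among the mutants. All 9 granule cell precursor markers were higher on average in mutants, and their summed level was 1223, 1552, 1741 and 2343 CPM in mutants 1 to 4, against 1173 to 1393 CPM in controls. Mutant 1 was inside the control range and mutant 4 was the highest, as for Dusp4, Dusp5 and Dusp6. All 8 dividing cell markers were also higher on average, with a summed level of 1078 to 1892 CPM in mutants and 905 to 1054 CPM in controls. Of the endothelium and pericyte markers 9 of 10 were higher, with a summed level of 313 to 446 CPM in mutants and 283 to 355 CPM in controls. Choroid plexus markers, from a tissue beside the cerebellum, were higher for 9 of 10 and summed to 3868 to 6502 CPM in mutants and 1562 to 3572 CPM in controls, with mutant 2 the highest. Purkinje cell markers were higher for 8 of 8, with a summed level of 714 to 1095 CPM in mutants and 503 to 886 CPM in controls, and mutant 4 was the highest. Oligodendrocyte lineage markers were lower for 9 of 10 and summed to 647 to 1254 CPM in mutants and 1255 to 1886 CPM in controls. Microglia markers were lower for 10 of 10 and summed to 131 to 198 CPM in mutants and 166 to 251 CPM in controls, and mutant 4 was the lowest for both of these lists. Astroglia markers were higher for 5 of 8 and meninges markers for 2 of 7. No marker of these lists was at 0 in any library, and none passed the edgeR test. At an unadjusted edgeR p under 0.05, 6.94% of all genes were higher and 5.7% lower. Higher at that threshold were 7 of 9 granule precursor, 5 of 8 dividing cell and 9 of 10 choroid plexus markers. So were 5 of 10 endothelium and pericyte, 2 of 8 Purkinje cell and 2 of 8 astroglia markers. Lower were 6 of 10 oligodendrocyte lineage, 2 of 10 microglia, 2 of 8 astroglia and 1 of 7 meninges markers. A fit with the mean log2 level of the granule precursor markers as a covariate was added after the values were seen. Its log2 fold changes were 0.03 for Dusp4, 0.15 for Dusp5 and 0.09 for Dusp6 (edgeR adjusted p 0.80 to 0.94). That mean level, less the mean of the controls, was -0.0030 to 1.01 in mutants and -0.164 to 0.170 in controls. It moved partly with genotype, so the fit cannot tell it apart from genotype. With the Hox genes as a covariate the log2 fold changes were 0.21, 0.52 and 0.29 in the same order, and with the choroid plexus markers 0.63, 1.04 and 0.53. On the same scale the choroid plexus level was 0.650 to 1.06 in mutants and -0.440 to 0.444 in controls, without overlap. The Hox level was -4.13 to 0.145 in mutants and -0.467 to 0.479 in controls. Both moved with genotype too, so these fits cannot tell them apart from genotype. Without mutants 2 and 4, the libraries with Y-linked counts, the log2 fold changes were 0.31, 0.58 and 0.35, and with Xist as a covariate 0.30, 0.56 and 0.34. The parts of the cell types in these values were not tested.

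Within each title letter, 2 mutants were set against 2 controls. Dusp4, Dusp5 and Dusp6 had both mutants above both controls within P and again within R, as 8.74% of all genes did, and no other member did so. The difference in mean log2 CPM was 0.27 in P and 0.65 in R for Dusp4. It was 0.68 in P and 0.90 in R for Dusp5, and 0.34 in P and 0.71 in R for Dusp6. All 3 genes were therefore higher in the mutants of both letters, with the larger difference in R.

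Dusp7 and Dusp8 ran in opposite directions in the letters, as 5.23% of all genes did by the same arrangement. Both mutants were above both controls in P, by 0.05 for Dusp7 and 0.11 for Dusp8, and both were below both controls in R, by -0.24 for Dusp7 and -0.36 for Dusp8, in mean log2 CPM. The interaction of genotype and letter had a log2 size of -0.47 for Dusp8 (edgeR adjusted p = 0.0854) and -0.29 for Dusp7 (edgeR adjusted p = 0.292). It passed for 0 of 10 members, against 3.2% of all genes. Dusp1 and Dusp2, 2 of 10 members, had every R library above every P library, against 7.71% of all genes. They had a log2 level in R over P of 0.44 (SE 0.10, edgeR adjusted p = 0.0637) for Dusp1 and 0.49 (SE 0.15, edgeR adjusted p = 0.0936) for Dusp2. The letter term passed for 0 of 10 members and for 0.019% of all genes.

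**Figure D4:**
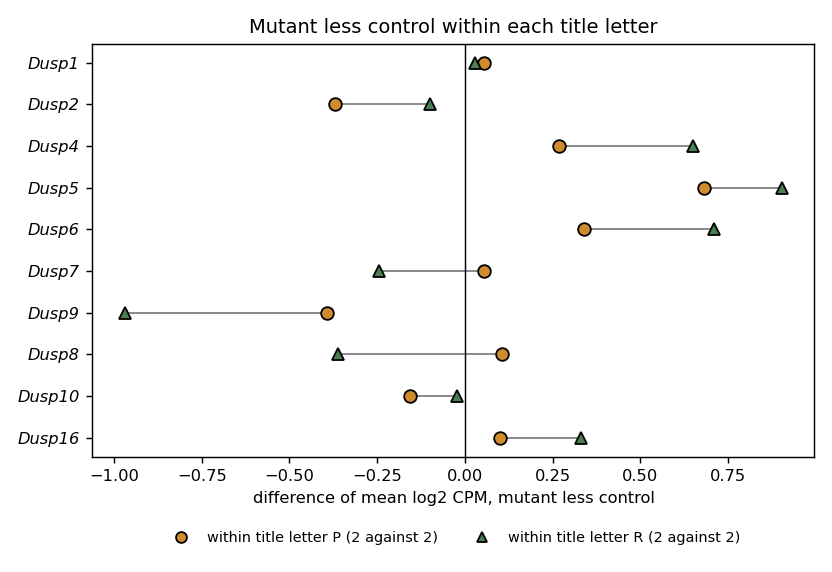
Difference in mean log2 CPM, mutant less control, within title letter P (circles) and within title letter R (triangles), with 2 mutants and 2 controls in each. Dusp4, Dusp5 and Dusp6 lie to the right of 0 in both letters, and Dusp7 and Dusp8 lie on opposite sides of 0.

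Exon bin counts were used to see whether a difference ran along the whole gene. All 4 bins of Dusp4 were higher in mutants, by log2 fold changes of 0.35 to 0.50. The same held for all 4 bins of Dusp5, at 0.67 to 0.91, and all 3 bins of Dusp6, at 0.53 to 0.62. Each of these genes thus lay on the same side in every bin. All bins tested were lower in mutants for Dusp2 (4 bins, -0.32 to -0.13), Dusp7 (3 bins, -0.16 to -0.05), Dusp8 (7 bins, -0.24 to -0.04) and Dusp9 (3 bins, -0.61 to -0.60). Bins pointed both ways for Dusp1, Dusp10 and Dusp16. Relative bin use passed for 0 of 10 members (edgeR diffSpliceDGE, Simes adjusted p = 1 for each), and for 0.00749% of the 13351 genes with a bin test.

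**Figure D5:**
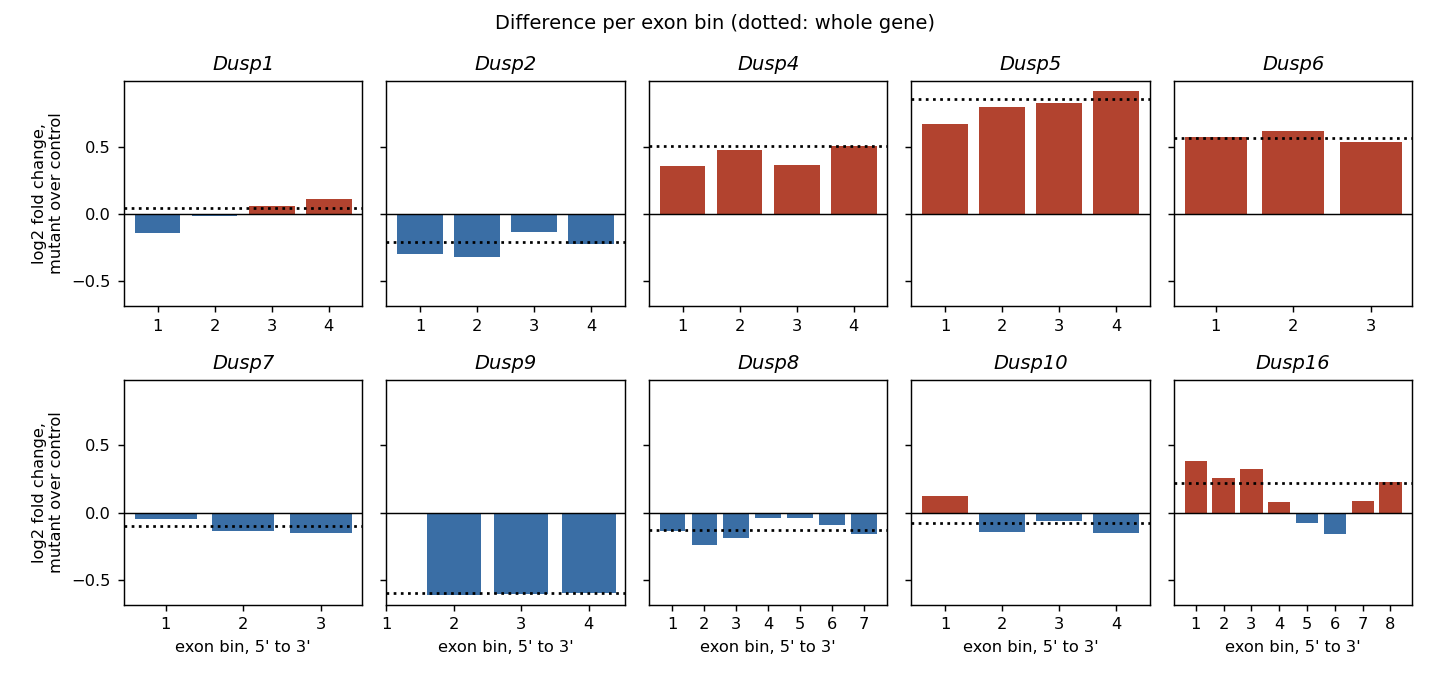
Log2 fold change, mutant over control, of each tested exon bin of the 10 members, numbered 5′ to 3′, with the whole gene as a dotted line; red bars are higher and blue bars lower in mutants. The bars of Dusp4, Dusp5 and Dusp6 all stand above 0 at 0.35 to 0.91, and the first bin of Dusp9 was not tested.

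Mutant 1 had the lowest share of counts in the 5′ bin, a measure that falls when RNA is partly degraded before polyA selection. Over 12717 genes the median share was 2.73% in mutant 1 and 3.65 to 4.12% in the other mutants, against 3.45 to 3.94% in controls. For Dusp6 the 5′ bin held 18.3% in mutant 1 and 26.2 to 30.2% in mutants 2 to 4, against 24.5 to 28.4% in controls. For Dusp4 and Dusp5 mutant 1 was also the lowest of the 8 libraries, at 14.7% and 6.31%. The same held for Dusp1, Dusp2, Dusp7, Dusp8 and Dusp16. For Dusp10 mutant 1 was the highest, at 5.42%, and for Dusp9 it was at neither end. Without mutant 1 the log2 fold change was 0.60 for Dusp4, 1.04 for Dusp5 and 0.70 for Dusp6, with 0.138 as the smallest edgeR adjusted p of any member. Without mutant 4 it was 0.27 for Dusp4, 0.63 for Dusp5 and 0.39 for Dusp6.

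Other genes of the pathway were read from lists, in which 0 genes passed the test. Of 12 tested ERK feedback genes and targets outside the Dusp family, 11 were higher on average in mutants, as were 8254 of all 15789 genes. At an unadjusted edgeR p under 0.05, 6 were higher and 0 lower, against 6.94% and 5.7% of all genes. The median log2 fold change was 0.21 against 0.01 over all genes. In 4 of the 12 every mutant was above every control, against 3.6% of all genes. Etv5, an ETS factor induced by FGF, stood at 115, 148, 159 and 241 CPM in mutants 1 to 4, against 78.3, 86.7, 105 and 106 CPM in controls 1 to 4, a log2 fold change of 0.82 (SE 0.20, adjusted p = 0.381). Every mutant was above every control for Etv5, which held for no Dusp member, and mutants 1 and 4 were again the lowest and the highest. Spry1 and Spry4, which encode Sprouty inhibitors of receptor tyrosine kinase signalling, had log2 fold changes of 0.51 (SE 0.17) and 0.36 (SE 0.12).

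Of 16 tested FGF ligands and receptors, 8 were higher and 8 lower, and the median was -4.6e-04. At an unadjusted edgeR p under 0.05, 4 were higher and 0 lower, against 6.94% and 5.7% of all genes. Fgf8, an ERK-activating ligand of the midbrain-hindbrain organizer, stood at 2.41, 5.59, 7.03 and 10.7 CPM in mutants 1 to 4, against 0.697, 1.33, 1.05 and 1.08 CPM in controls 1 to 4 (log2 fold change 2.63, SE 0.41, adjusted p = 0.381). Every mutant exceeded every control for Fgf8, and mutant 1 was the lowest and mutant 4 the highest, as for Dusp4, Dusp5 and Dusp6. Fgf5, another secreted FGF, had a log2 fold change of 0.84 (SE 0.26), and the receptor Fgfr2 one of 0.26 (SE 0.10).

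The kinases on which the phosphatases act, and those upstream of them, had values on both sides of 0, with the smallest p for genes that were lower in mutants. Of 13 MAP kinase genes 4 were higher and 9 lower. At an unadjusted edgeR p under 0.05, 0 were higher and 1 was lower, against 6.94% and 5.7% of all genes. That gene was Mapk3, which encodes ERK1, at 128, 124, 131 and 103 CPM in mutants 1 to 4. Its controls 1 to 4 held 145, 131, 160 and 145 CPM (log2 fold change -0.25, SE 0.10). Mapk10, the neuronal JNK, had a log2 fold change of -0.28 (SE 0.14), and Mapk14, p38 alpha, one of 0.16 (SE 0.10). Mapk14 held 63.5 to 73.7 CPM in mutants and 51.0 to 63.0 CPM in controls. It was the 1 gene of this list with every mutant above every control, against 3.6% of all genes. Of 7 MAP kinase kinases 4 were higher and 3 lower. Map2k1, the ERK kinase MEK1, stood at 61.3, 55.1, 55.6 and 45.3 CPM in mutants 1 to 4 and 71.2, 68.5, 63.6 and 63.5 CPM in controls 1 to 4, all 4 mutants below all controls (log2 fold change -0.30, SE 0.10). In the RAS and RAF module 10 of 14 genes were higher, with the smallest p for Frs3, an FGF receptor adaptor, at a log2 fold change of -0.57 (SE 0.16).

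Among 14 tested other dual-specificity phosphatases, 7 were higher and 7 lower. At an unadjusted edgeR p under 0.05, 1 was higher and 2 were lower, against 6.94% and 5.7% of all genes. These were Dusp18 at a log2 fold change of 0.23 (SE 0.10), Dusp26 at -0.33 (SE 0.14) and Dusp15 at -0.32 (SE 0.14). All 3 tyrosine phosphatases of MAP kinases had lower means, led by Ptpn5, the striatum-enriched phosphatase, at -0.30 (SE 0.16). Of 13 tested immediate early genes 4 were higher and 9 lower, with a median of -0.19. The 3 with the smallest p were Arc at -0.40 (SE 0.16), Fos at -0.33 (SE 0.15) and Nr4a1 at -0.31 (SE 0.17), all lower on average in mutants, where Dusp4, Dusp5 and Dusp6 were higher.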

How the data were processed

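PolyA RNA from whole cerebella of 4 mutant and 4 control pups was sequenced as TruSeq libraries, per the labels' protocols. The authors deposited raw read counts for 24062 genes and 219958 exon bins per library, and the submitters' processing notes name TopHat, HTSeq, DESeq2 and build mm9 without versions. The counting annotation and strand setting are not given in the sources used here, and reads of overlapping or antisense genes may be mixed. Lines that name no gene, 24.8 to 34.3% of entries, were left out. They made up 30.1 to 34.3% in the libraries with title letter P and 24.8 to 26.3% in those with R. Counts in genes were 21479565 to 26638284 per library. The 12 pairs of libraries within groups all exceeded counting noise (chi-square per degree of freedom 7.42 to 81.0).

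The gene test was that of edgeR 4.0.16 under R 4.3.3 (filterByExpr, TMM, robust quasi-likelihood F test, two-sided, Benjamini-Hochberg adjustment over 15789 genes, threshold 0.05) with genotype as the only term, and bins with diffSpliceDGE and Simes' method. Levels are CPM on TMM-scaled library sizes, and log2 profiles used a prior count of 2. DESeq2 1.42.0, other scalings and filters, the title letter as a block or a split, marker and Xist covariates, and leaving out each library were tried as alternatives. The steps were tested on simulated counts. The text names all members, Sufu, up to 3 genes with the smallest p per pathway list, and the 3 genes nearest each member in profile, of which some are left out. Members and lists were chosen with earlier results of these data known. Promoter windows were read from RefSeq.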

Additional observations from a re-analysis of the deposited data

Results flagged for a closer look

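In 56 groups of 4 libraries checked, over members and list scores, 5 had 1 library far from its group by Dixon's criterion for 4 values, which compares the gap to the nearest library with the range of the group, and chance gives about 1 in 20. Dusp9 was 0.520 CPM in mutant 4, with a gap of 0.849 of the range of the mutants. The other 4 were list scores, the mean log2 CPM of a list less the mean of the controls. The choroid plexus score was 1.06 in mutant 2 (0.855 of the range). The endothelium and pericyte score was -0.0661 in mutant 1 (0.898) and -0.172 in control 1 (0.897), so the lowest library of each group stood apart. The astroglia score was -0.0674 in control 1 (0.986), a small distance in a group whose other libraries nearly coincided.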

How the results depend on the processing

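In all 21 alternatives 0 of 10 members passed over all genes tested, with a smallest member adjusted p of 0.0911 among the R libraries alone, 0.137 with DESeq2, 0.216 with the title letter as a replicate block and 0.381 in the reported fit. Bin use passed for 0 members in each of its 10 alternatives, and the interaction for 0 in its 1 alternative. Dusp4, Dusp5 and Dusp6 were higher in mutants in each alternative, with log2 fold changes of 0.03 to 0.65, 0.15 to 1.04 and 0.09 to 0.70, the lowest with the granule precursor score as a covariate. Without the libraries with Y-linked counts they were 0.31, 0.58 and 0.35. Leaving out 1 library at a time gave 0.27 to 0.60 for Dusp4, 0.63 to 1.04 for Dusp5 and 0.39 to 0.70 for Dusp6, lowest without mutant 4 and highest without mutant 1. The median over members moved with the choroid plexus score as a covariate, to 0.12, and the cause was not tested.

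Direction changed in at least 1 alternative for Dusp1, Dusp2, Dusp7, Dusp8 and Dusp9, and the cause was not tested. Among P libraries alone, Dusp7 was 0.0487 and Dusp8 0.10. With the Hox score as a covariate, Dusp1 was -0.0808, Dusp7 4.3e-04 and Dusp8 0.0040. Dusp1 was -0.0798 with Xist as a covariate, -0.0694 without the libraries with Y-linked counts, -0.32 with the granule precursor score, and -0.0663 to 0.141 when 1 library was left out. Dusp9, at -0.60 in the reported fit, was 0.0604 with the granule precursor score, and Dusp2 was 0.16 with the choroid plexus score. Dusp9 ranged from -0.76 without mutant 1 to -0.31 without mutant 4, and its counts of 14 to 68 per library limit its precision. The granule precursor and choroid plexus covariates were chosen after seeing the data.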
